A study of Homo sapiens with 2 samples.

Results

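The peaks described here are the PROX1 peaks at the BMP4 locus, taken as every peak of the authors' list on chromosome 14 whose centre lies from 53 to 54 Mb (build hg18). They number 72 of the 23450 listed peaks. The window was chosen with the number of its peaks and their folds already known: its members were chosen by position, and the window was selected on its peak count. Its density and strength are therefore given as descriptions, with no test. The assay was ChIP-seq, in which chromatin bound by a protein is precipitated with an antibody and its DNA sequenced. The cells were SW480R, which were subpopulated from the human colorectal adenocarcinoma line SW480. The group with PROX1 antibody is 1 library pooled from 3 independent immunoprecipitations, and the other group is 1 library of input DNA, the same kind of chromatin without antibody. Neither group carries a further treatment or genotype in the labels, both come from 1 cell line, and no replicate spread could be measured. The input enters only through the fold, the authors' ratio of ChIP to input at a peak, and the ChIP library through that fold and the whole-number tags (reads) counted in each peak. How many reads each library held in all is not stated in these sources, so a place without a listed peak cannot be given a level.

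PROX1 is a homeobox transcription factor that binds DNA and can raise or lower transcription of nearby genes, and it is known from lymphatic, liver and lens development and from colorectal tumours. BMP4 is a secreted ligand of the bone morphogenetic protein family. It binds paired serine/threonine kinase receptors, which phosphorylate SMAD proteins that then enter the nucleus, and in the gut BMP signalling is known to oppose stem cell renewal in the crypt. BMP4 is also known for regulatory elements that lie far from the gene.

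BMP4 occupies about 53486200 to 53493300 of chromosome 14 in hg18 and is read from the minus strand. Its start is therefore at the higher coordinate, and "upstream" below means higher coordinates. These bounds are approximate, since no hg18 gene annotation was used here, and distances in kb carry that uncertainty. In the order of protein-coding genes in RefSeq, BMP4 stands between DDHD1, a phospholipase gene, and LOC124903317, followed by CDKN3, a phosphatase gene that acts on cyclin-dependent kinases, and CNIH1. Which of these neighbours reach into the window was not assessed. Peaks are therefore assigned to a distance from BMP4 and not to a target gene.

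A single peak lay inside BMP4, and it was among the weaker ones. It spanned 53489811 to 53489951, held 16 tags and had a fold of 16.04, in a list whose lowest fold is 13.03. Its centre was 3.42 kb inside the gene from the start. It was a lone peak, with the neighbours 23.22 kb away on the lower side and 18.06 kb away on the upper side. RefSeq lists 3 starts of BMP4 with promoter sequence in build GRCh38.p14, and the outermost of them is shown because it is the promoter of the gene that holds this peak. The 250 bases before this start lie at chr14:53955051-53955300 of GRCh38.p14 on the minus strand, and capitals mark the letters AAGGCG.
BMP4 promoter: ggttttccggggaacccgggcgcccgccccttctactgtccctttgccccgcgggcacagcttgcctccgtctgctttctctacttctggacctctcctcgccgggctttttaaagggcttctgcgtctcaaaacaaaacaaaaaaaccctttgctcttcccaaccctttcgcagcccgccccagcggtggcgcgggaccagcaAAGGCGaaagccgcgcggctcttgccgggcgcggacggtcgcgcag
The strings AAGACG and AAGGCG were searched on both strands, as parts of the site known for PROX1 in vitro. A string on one strand can share its closing letters CG with one on the other strand. This stretch held 1 match (AAGGCG), and the corresponding 250 bases of the other 2 starts, 562 and 1655 bases further into the gene, held 0. At least one of the strings was present in 16.1% of the 35116 RefSeq promoter stretches of the same length. The share of G and C was 63.6% in the stretch shown and 56.0% and 70.4% in the others, against a median of 58.0% over all. A match describes letters only. If the outermost start is the gene start used above, the peak centre, 3.42 kb inside, lies beyond all 3 starts. The start 1655 bases further in, with 0 matches, is then the nearest to the peak, and the stretch shown is the farthest. The exact distances were not assessed, since peak and sequence are of different builds, and the match shown is not tied to the peak.

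Peaks were listed around BMP4 at several times the mean rate of all 1 Mb windows. The window was chosen with its peak count known, so a high rate in spans inside it comes with that choice. Within 20 kb of the gene there were 3 peaks including the one inside it, within 50 kb there were 6, within 100 kb 14, within 200 kb 29 and within 300 kb 51. At the mean rate of all 1 Mb windows these spans would hold 0.364, 0.827, 1.60, 3.14 and 4.69 peaks, so the counts were 8.25, 7.25, 8.75, 9.22 and 10.9 times that rate. Within 10 kb the only peak was the one inside the gene, which is 4.78 times the 0.209 peaks at that rate. The spans are nested and the nearest hold few peaks, and no trend with distance is read from them. The nearest peak upstream (53508011 to 53508111) lay 14.76 kb before the start, with 63 tags and a fold of 51.13. The nearest on the downstream side, at 53466531 to 53466591, lay 19.64 kb beyond the gene's end and had 36 tags and a fold of 36.09. The other 2 of the 5 nearest were both upstream, at 53515991 to 53516091 (22.74 kb, 42 tags, fold 42.1) and 53535751 to 53535891 (42.52 kb, 48 tags, fold 32.08). These 4 peaks outside the gene thus all had more tags and higher folds than the peak within it.

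**Figure D1:**
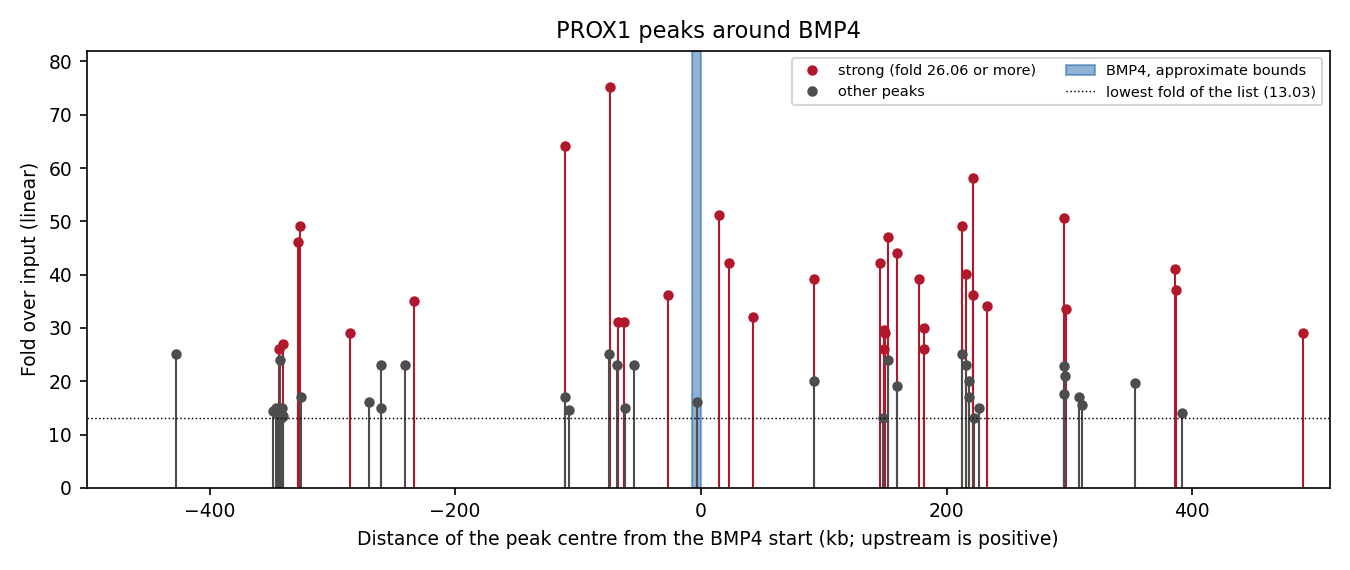
Each line is 1 of the 72 peaks, placed by the distance of its centre from the BMP4 start in kb (upstream positive) and drawn to its fold over input on a linear axis. Red peaks reach a fold of 26.06, the shaded band is the gene, and the peak within the band stands at 16.04 while the highest, at 75.19, stands 73.87 kb downstream of the start.

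Both flanks of BMP4 carried peaks, and the upstream flank carried more peaks and more of the strong ones. A peak is called strong below when its fold is at least 26.06, or 2 times the lowest of the list. The 507 kb upstream held 40 peaks (7.89 per 100 kb) with 1711 tags, and the 486 kb downstream held 31 peaks (6.38 per 100 kb) with 967 tags. Strong peaks numbered 23 of 40 upstream (57.5%, exact 95% binomial interval 40.9 to 73.0) and 11 of 31 downstream (35.5%, 19.2 to 54.6). Over all nuclear peaks 30.3% were strong, which is near the downstream share. The median peak had 35.5 tags and a fold of 29.07 upstream, and 25 tags and a fold of 23.06 downstream. Of the 31 downstream peaks, 10 lay within 53145051 to 53153211, and 2 of those 10 were strong. The downstream share without them was not calculated. The intervals of the 2 flanks overlap. All intervals here cover counting error only and take neighbouring peaks as independent, and reads without molecular identifiers are not independent molecules.

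The peaks were unevenly spread within the window. By 100 kb step, the fullest were 53.7 to 53.8 Mb with 16 peaks and 799 tags, 53.1 to 53.2 Mb with 13 peaks and 432 tags, and 53.6 to 53.7 Mb with 12 peaks and 431 tags. The first and the last step held 1 peak each. The step with the gene, 53.4 to 53.5 Mb, held 9 peaks with 275 tags. At 53.6 to 53.7 Mb, 9 of 12 were strong, against 4 of 13 at 53.1 to 53.2 Mb, so the steps with many peaks differed in how many of them were strong. The share over all nuclear peaks was 30.3%.

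The first peak of the window (53066211 to 53066291) had 25 tags and a fold of 25.06, and the last (53983791 to 53983871) had 29 tags and a fold of 29.07. Both stood far from the next listed peaks outside. Those lay 71.1 kb before, at 52995071 to 52995111, and 117.54 kb after, at 54101411 to 54101491, and each had 14 tags and a fold of 14.03. The edges of the window therefore cut through no run of peaks.

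As a 1 Mb window, the BMP4 locus stood near the top of the genome by number of peaks. This count chose the window, so nothing is read from it beyond its size. The 3032 windows from each chromosome's start to its last peak held a median of 5 peaks and a mean of 7.72, and 72 is 9.32 times that mean. These windows include 614 with no peak, and stretches of unassembled sequence were not left out. The window shared rank 2 with 129 to 130 Mb of chromosome 8, and a single window held more, the one just before it (128 to 129 Mb, 121 peaks). At least 30 peaks were found in 81 windows, which is 2.67% of all. On chromosome 14 the window held 9.39% of the 767 peaks and 10.0% of the tags in peaks, and the next fullest window of the chromosome, from 64 Mb, held 41 peaks. The windows at 51 and 52 Mb held 6 and 5 peaks, and those at 54 and 55 Mb held 20 and 7, so the density fell off on both sides. The place of the window's edges matters for the rank. In windows shifted by 0.5 Mb, the locus was divided into 34 peaks (52.5 to 53.5 Mb, rank 47) and 47 peaks (53.5 to 54.5 Mb, rank 10), whereas 1 Mb centred on the BMP4 start held 73.

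**Figure D2:**
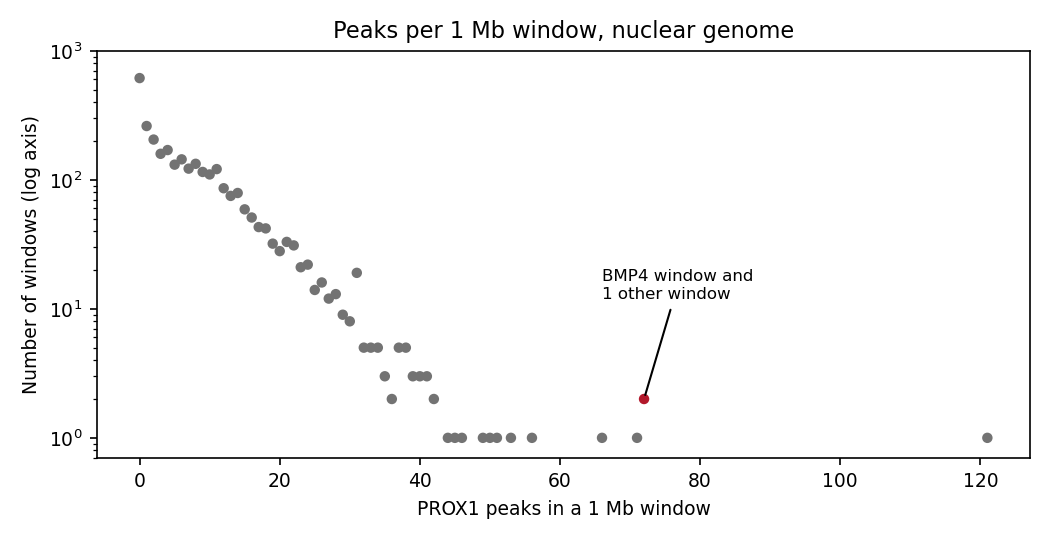
The number of 1 Mb windows (log axis) is plotted against the number of PROX1 peaks they hold, for 3032 windows of the nuclear genome. The red point marks the count of 72 peaks, reached by the BMP4 window and 1 other, and 1 window lies beyond it at 121.

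Most peaks of the locus belonged to runs. Peaks whose edges lay within 10 kb of each other were joined, which gave 21 places, of which 7 were single peaks, 9 were runs of 2 or 3 peaks and 5 were runs of 4 or more. Of the 72 peaks, 65 had a neighbour within 10 kb (90.3%, interval 81.0 to 96.0), whereas 56.6% of all nuclear peaks and 59.6% of the chromosome 14 peaks outside the window did. Runs of 4 or more held 42 peaks (58.3%), against 21% of all nuclear peaks. A window chosen for many peaks has short gaps by that choice, so these shares describe the locus and are not separate evidence. The 5 long runs took 61.2% of the window's 2694 tags and 6.51% of its length.

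The longest run lay upstream of BMP4, at 53705851 to 53726411, and its nearest edge was 213 kb before the start. It counted 11 peaks and 383 tags within 20.56 kb. Its first pair was at 53705851 to 53706011, with 25 tags, and 53706131 to 53706171, with 98 tags and a fold of 49.12. The next pair followed at 53708731 to 53708771 (23 tags) and 53708931 to 53708971 (40 tags), and another at 53711811 to 53711851 (20 tags) and 53711971 to 53712031 (17 tags). Then came 53714491 to 53714531 with 36 tags and 53714791 to 53714911 with 62 tags, whose fold of 58.14 was the highest of the run. The last members were 53715551 to 53715611 (13 tags, at the lowest fold of the list), 53719331 to 53719371 (15 tags) and 53726371 to 53726411 (34 tags). Strong and weak peaks thus alternated over short distances, and 5 of the 11 were strong.

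The second longest run lay on the other flank and was made almost wholly of weak peaks. It spanned 53145051 to 53153211, with its nearest edge 333 kb beyond the gene's end, and held 10 peaks over 8.16 kb. Its median fold was 15.04 and 2 of 10 peaks were strong, both barely (26.06 and 27.07). Its first peak, at 53145051 to 53145091, had 144 tags, the second most of the window, but a fold of 14.44. The other 9 peaks of the run had 13 to 27 tags.

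The run at 53638871 to 53653191, 146 kb upstream of the start, held 9 peaks with 306 tags within 14.32 kb. It had 6 strong peaks, a median fold of 29.07 and a highest fold of 47.12 (53645271 to 53645391, 47 tags). The run at 53418651 to 53439051 was the long run nearest to BMP4, 47.1 kb beyond the gene's end, and held 7 peaks with 223 tags within 20.4 kb. It had 3 strong peaks, and the one at 53419371 to 53419491, with 75 tags, had the highest fold of the window (75.19).

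The most compact of the long runs lay at 53788591 to 53790271, 295 kb upstream of the start, and held 5 peaks and 416 tags within 1.68 kb. Its peaks had 91, 202, 35, 21 and 67 tags, with folds of 22.81, 50.63, 17.54, 21.05 and 33.58. The peak with 202 tags, at 53788751 to 53788791, held the most tags of the window. It lay between peaks 120 and 140 bp away on either side. The 5 long runs therefore differed from each other in strength as well as in length, with between 2 and 6 strong peaks each.

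**Figure D3:**
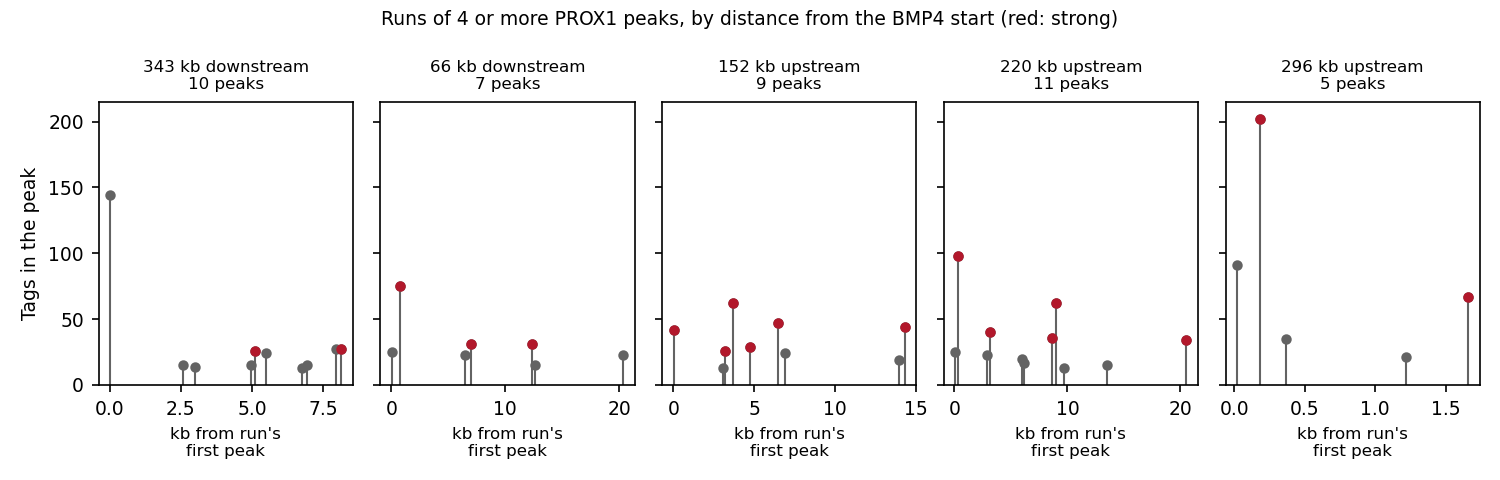
Each panel is 1 of the 5 runs of 4 or more peaks, named by its mean distance from the BMP4 start, with tags per peak on a shared linear axis against the distance in kb from the run's first peak. Red marks strong peaks, and the 2 tallest points are the peak of 202 tags in the run of 5 and the peak of 144 tags, not strong, that opens the run of 10.

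Shorter runs and lone peaks held the other strong sites. At 53382391 to 53385591, about 101 kb beyond the gene's end, a run of 3 held the peak with the second highest fold of the window (53382891 to 53383011, 64 tags, fold 64.16) beside peaks of 17 and 29 tags. At 53165371 to 53168151 a run of 3 held the peaks 53165371 to 53165411 (46 tags, fold 46.11) and 53166931 to 53167091 (49 tags, fold 49.12). All 3 peaks of the run at 53670571 to 53675371, 177 kb upstream, were strong. Strong peaks made up 4 of 7 lone peaks (57.1%, interval 18.4 to 90.1), 12 of 23 in runs of 2 or 3 (52.2%, 30.6 to 73.2) and 18 of 42 in longer runs (42.9%, 27.7 to 59.0). The longer runs include the run of 10 peaks with 2 strong ones, and the share without it was not calculated. The intervals of these classes overlap. In all nuclear peaks the corresponding shares were 24.0%, 33.7% and 37.7%, so the order of the 3 values was the other way round there, and this difference in order was not tested.

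The 10 peaks of highest fold spanned folds from 44.11 to 75.19, in a nuclear list whose highest fold was 435.08. After the leading peaks with 75.19 (rank 589 of 23417 nuclear peaks) and 64.16 (rank 923) came those already named with 58.14, 51.13 and 50.63. The peaks at 53166931 and 53706131 followed, both with a fold of 49.12 but with 49 and 98 tags, then those at 53645271 (47.12) and 53165371 (46.11). The tenth (53653151 to 53653191) had 44 tags and a fold of 44.11. Of these 10 peaks, 6 lay upstream of BMP4 and 4 downstream, at 14.76 to 327.9 kb from the start. Together they held 27.8% of the window's tags.

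By fold, the peaks of the locus were raised in the middle of the range, and at its top, where few peaks stood, no excess was seen. The median fold was 25.06 (interquartile range 17.04 to 36.09), against 19.05 (15.04 to 28.32) over all nuclear peaks. Strong peaks numbered 34 (47.2%, interval 35.3 to 59.3), against 30.3% of all nuclear peaks and 29.6% of the chromosome 14 peaks outside the window. No window had a higher number of strong peaks. By the share of strong peaks, the window ranked 10 among the 81 windows with 30 or more peaks, whose shares ran from 8.82% to 64.3% with a median of 34.4%. A fold of 3 times the lowest was reached by 22.2% of the window's peaks (interval 13.3 to 33.6) and by 13.5% of all, a share within that interval. Only 5 peaks had a fold of at least 50 (6.94%, interval 2.29 to 15.5, against 7.62% of all), and no peak reached 80, which 2.07% of all nuclear peaks did. The shares at 50 and 80 rest on few peaks, so no lack at the top is read from them. At the other end, a fold under 20 was found in 33.3%, against 51.1% of all.

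By tags, the locus stood closer to the rest of the list. The median was 28 tags (interquartile range 19.75 to 42.5, range 13 to 202), against 25 (17 to 44) over all nuclear peaks. At least 38 tags, the number that marks about as many peaks as the strong fold does, were found in 23 peaks (31.9%, interval 21.4 to 44.0), against 30.9% of all. The share with at least 20 tags was 75% against 63.8%, whereas that with at least 100 was 2.78% against 5.50%. With 38 tags as the mark, the excess of strong peaks by fold was thus not seen. At lower counts the window's share was higher, with at least 25 tags in 61.1% of its peaks against 51.3% of all. No interval was calculated for the shares at 20 and 25 tags, so these differences are descriptions only. Just under the strong threshold lay 3 peaks with 25 tags and a fold of 25.06, and just at it 3 peaks with 26 tags and a fold of 26.06, so at this level the class turns on a single tag.

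**Figure D4:**
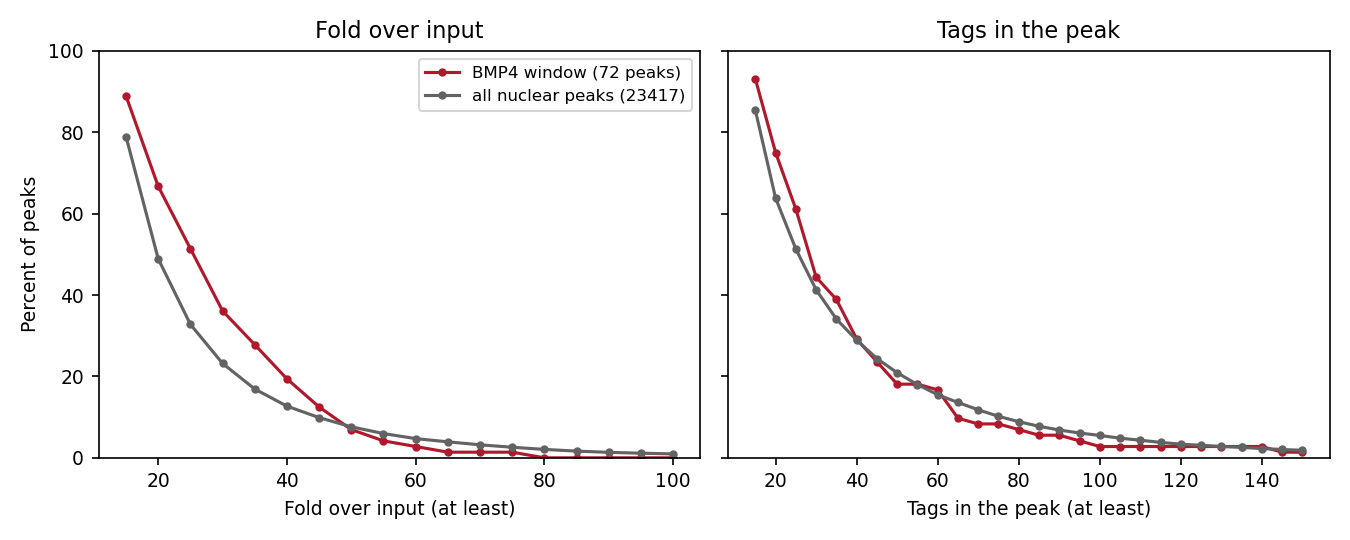
The percent of peaks with at least a given fold over input (left) or number of tags (right) is shown for the 72 peaks of the BMP4 window (red) and all 23417 nuclear peaks (grey). At a fold of 25 the window stands at 51.4% against 32.8%, the curves cross near a fold of 50, and for tags they lie close together from 30 tags upward.

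The fold depends on the input tags at each peak, which were inferred from tags and fold. Rounded to a whole number, the inferred input was at its lowest value, 1, which may also stand for 0, in 58 peaks (80.6%, against 75.9% of all nuclear peaks). It was 2 or more in 14 peaks (19.4%, interval 11.1 to 30.5, against 24.1%) and 5 or more in 1 (1.39%, 0.0352 to 7.50, against 4.54%). That 1 peak was the one of 144 tags at 53145051, with an inferred input of 10. Strong peaks made up 46.6% of the window's peaks at a rounded input of 1, against 33.0% of all such peaks. In this class fold and tags are mostly nearly the same number, but not for the peak at 53508011 (63 tags, fold 51.13). Strong peaks made up 50% of the 14 at a higher input, against 22%. The share of strong peaks was therefore above that of the list in both classes.

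In width the peaks of the locus resembled the rest of the list. A width of 40 bp, the narrowest listed, was given for 42 peaks (58.3%, against 57.2% of all), and 18 peaks (25%, against 26.3%) were 100 bp wide or more. These wider peaks had a median of 47.5 tags and a median fold of 31.08, against 26 tags and 23.06 for the 40 bp ones. Strong peaks made up 61.1% of the wider and 45.2% of the 40 bp peaks, and 40% and 29.9% in the nuclear list, so in both the wider peaks were more often strong. The deposited p-values of the window's peaks ran from 1.8e-05 to 0.00099.

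The gaps between neighbouring peaks spanned 3 orders of magnitude. The median of the 71 gaps was 2.52 kb, against 26.16 kb over all nuclear peaks, and 28 gaps (39.4%, against 18.9%) were 1 kb or shorter. The shortest was 80 bp. The 3 longest were 122.46 kb (53259931 to 53382391) and 78.76 kb (53066291 to 53145051), both on the downstream side, and 99.1 kb (53884691 to 53983791) upstream. Each of these is longer than any single run of the window, and is a stretch without a listed peak, not a stretch shown to lack PROX1.

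Many peaks came in very close pairs. A neighbour within 200 bp was found for 23 peaks (31.9%, interval 21.4 to 44.0), against 19% of all nuclear peaks, and one within 1 kb for 47 (65.3%, 53.1 to 76.1), against 33.1%. The 12 gaps of 200 bp or less separated peaks whose tags differed by 1.00 to 5.77 times. In 13 cases the centres of neighbours lay within 300 bp, at a median distance of 170 bp, against 180 bp over the 2538 such cases of the nuclear list. Whether such pairs are separate sites or 1 site listed as several was not tested. With peaks within 1 kb counted once the locus held 44 places, and 28 of them (63.6%) had a strong peak as their best, against 32.8% of the 19001 nuclear places joined in the same way. With peaks within 10 kb counted once it held 21 places, of which 16 (76.2%) had one, against 36.6%. These 21 places held a mean of 3.43 peaks, against 1.59 over all nuclear places, and the part of this in the shares was not tested.

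Of 4 windows with a like number of peaks, the BMP4 locus and 3 others, the BMP4 locus had the highest share of strong peaks, and its interval overlapped that of the next. At 35 to 36 Mb of chromosome 21, with 71 peaks, 43.7% were strong (interval 31.9 to 56.0) and the median peak had 43 tags and a fold of 25.06. That window had an inferred input of 2 or more in 32.4% of its peaks, against 19.4% at BMP4, so a like fold there went with more tags. At 129 to 130 Mb of chromosome 8, with 72 peaks, 29.2% were strong (19.0 to 41.1) and the medians were 20.5 tags and a fold of 18.04. At 126 to 127 Mb of chromosome 8, with 66 peaks, 24.2% were strong (14.5 to 36.4). The peaks within 1 kb of another made up 65.3% at BMP4, 62.0% on chromosome 21, and 51.4% and 39.4% in the 2 windows of chromosome 8. By all tags in peaks the BMP4 window ranked 6, below each of these 3, which held 4255, 5544 and 6437 tags against its 2694.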

How the data were processed

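PROX1 ChIP and input DNA of SW480R cells were sequenced as 1 library each, and 3 immunoprecipitations were pooled beforehand, per the labels. Chromatin was cut with an enzymatic kit and precipitated with 5 µg of a goat PROX1 antibody, with 10 ng going into library preparation, per the labels' protocols. Coordinates are of hg18 (submitters' processing notes). Aligner, peak caller, threshold and depth per sample are not stated there. The deposited list gives each peak's tag count, not normalized, the authors' fold (a ratio of ChIP over input) and a p-value, which cannot be told from a q-value. Its columns have no header and were read from the values. Coordinates are printed as listed.

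The 33 mitochondrial peaks were left out. Peaks were assigned to 1 Mb windows by their centre. Runs joined peaks whose edges lay within 10 kb. Inferred input is tags times 1.0025 divided by the fold, whole within 0.02 for 94.4% of the window's peaks, and was rounded for all peaks. Intervals are exact (Clopper-Pearson) 95% binomial intervals. Python 3.11.15, numpy 2.4.6, pandas 2.3.3, scipy 1.17.1 and matplotlib 3.10.9 were used. The joining of runs was tested on simulated data, where 20 of 20 simulations were recovered exactly. Promoter sequences are from RefSeq (GRCh38.p14), matched by symbol. Other BMP pathway genes were not analysed here, since no hg18 annotation was used. The window and the rules for named peaks were chosen with earlier results of these data known. Named were the 10 peaks of highest fold, the 5 nearest to BMP4, the first and last peak, the members of the longest run, runs of 4 or more, the 3 longest gaps, and the adjoining and most similar windows. The runs of 3 were chosen after their values were seen. Alternatives covered the authors' threshold, merging, window placement, the measure of strength and the distance from BMP4.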

Additional observations from a re-analysis of the deposited data

How the results depend on the processing

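No paired analysis was possible because each group is 1 library. The count of 72 peaks was 50 among the better-ranked peaks, those down to the median rank of the list by fold, and 73 in 1 Mb centred on BMP4, but 34 at a fold of at least 2 times the lowest, 44 with peaks within 1 kb counted once and 21 with peaks within 10 kb counted once. The rank of 2 was kept among them, became 5 under either merging, and 10 and 47 in windows shifted by 0.5 Mb, an alternative chosen after seeing the data. The share of strong peaks, 47.2%, was 22.2% at 3 times the lowest fold, 31.9% by tags, 63.6% and 76.2% with the best peak of each place within 1 kb and 10 kb, and 47.5% without the longest run. Over all nuclear peaks or places the corresponding shares were 13.5%, 30.9%, 32.8% and 36.6%. The window's intervals at 3 times the lowest fold (13.3 to 33.6) and by tags (21.4 to 44.0) include the shares over all nuclear peaks. The window's places held more peaks each, a mean of 1.64 against 1.23 within 1 kb and 3.43 against 1.59 within 10 kb. The best of more peaks is more often strong, and the part of this in the shares of places was not tested. The share of peaks in runs, 90.3%, was 80.6% at a joining distance of 5 kb and 94.4% at 20 kb. Peaks near BMP4 numbered 6 within 50 kb, 14 within 100 kb and 29 within 200 kb. Among the better-ranked peaks, which have fewer low folds by construction, the medians were 35.5 tags and a fold of 30.58 (34 and 27.07 over all 12504 such nuclear peaks). Without the longest run they were 29 tags and 25.06. The depth of the libraries is unknown, so sites under the list's lowest fold of 13.03 are out of reach.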
